A study of Mus musculus with 12 samples.

Results

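Messenger RNA of 8 carbonic anhydrase genes, Car2, Car5b, Car6, Car8, Car9, Car12, Car13 and Car14, was followed in bulk RNA-seq counts of 12 B16-F10 tumors. The group was put together with results of these counts already known, and was chosen by the CPM of Car6 and Car12 in isotype-treated tumors, which were lower in obese than in nonobese mice. The difference between these isotype groups is therefore given as a description without a test, and the diet comparison under anti–PD-1, which rests on other tumors, is the one that was tested. The genes are 8 of the 16 carbonic anhydrases and of the 23420 genes in the table. All 8 passed the filter on low counts, which kept 13095 genes.

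B16-F10 is a melanoma cell line from C57BL/6 mice. It was implanted under the skin of male C57BL/6J mice that ate, from an age of 4 to 5 weeks and for 15 weeks, either a Western diet with 0.2% added cholesterol (obese) or a matching control diet (nonobese). Once tumors could be felt, the mice were injected with an antibody at 10 mg/kg, either anti–PD-1, which blocks the PD-1 checkpoint receptor of T cells, or an isotype control, and tumors were taken on day 16. Each of the 4 groups of diet and antibody had 3 tumors, so all groups share 1 tumor line, 1 sex and repeated antibody injections, and no group was left without antibody.

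Total counts per tumor ranged from 14022929 to 33871843. Levels are given as CPM, the usual library-scaled count with TMM-corrected library sizes, and the TMM factors lay between 0.951 and 1.09. The 10 melanocyte markers examined were all present and summed to between 26931 and 33157 CPM in the 12 tumors, which covers the defining genes of the labeled tumor type. A bulk tumor holds melanoma cells together with immune and stromal cells, and fewer cells of a type cannot be told apart from less RNA per cell. The labels number the tumors of a group without naming a mouse, so P values measure the spread between these tumors. With 3 tumors against 3, an exact two-sided permutation test of 1 gene cannot give a P below 0.1.

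Carbonic anhydrases are zinc enzymes that hydrate carbon dioxide to bicarbonate and a proton, and so set how fast a cell can buffer and export acid. The family is divided by place. Car2 and Car13 are cytosolic, Car5b is mitochondrial, Car6 is the secreted form best known from saliva and milk, and Car9, Car12 and Car14 are anchored in the plasma membrane with their catalytic site outside the cell. Car8 lacks a zinc ligand and has no classical enzyme activity. Car9 is a textbook target of hypoxia-inducible factors and marks poorly oxygenated tumor regions, where it works with bicarbonate, proton and lactate transporters to keep the cytosol from acidifying. The human counterpart of Car12 is a known estrogen-responsive gene in breast cancer.

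Promoter windows are shown for the members whose regulation a reader would look up first: Car6 and Car12, whose isotype values chose the genes, Car9, the hypoxia target, and Car14, the abundant membrane form that varied least. RefSeq windows of GRCm38.p6, from 250 bases before to 50 bases after the annotated start, were found for 5 of the 8 members. They lie at chr4:150201086-150201385 on the minus strand for Car6, chr9:66713436-66713735 on the plus strand for Car12, chr4:43506776-43507075 on the plus strand for Car9 and chr3:95904636-95904935 on the minus strand for Car14. Capitals mark matches, on either strand, to ACGTG and GCGTG, the core letters bound by hypoxia-inducible factors, to CACGTG and CATGTG, E-box letters bound by MITF and other helix-loop-helix factors, and to the estrogen response element, GGTCA and TGACC spaced by any 3 bases.
Car6: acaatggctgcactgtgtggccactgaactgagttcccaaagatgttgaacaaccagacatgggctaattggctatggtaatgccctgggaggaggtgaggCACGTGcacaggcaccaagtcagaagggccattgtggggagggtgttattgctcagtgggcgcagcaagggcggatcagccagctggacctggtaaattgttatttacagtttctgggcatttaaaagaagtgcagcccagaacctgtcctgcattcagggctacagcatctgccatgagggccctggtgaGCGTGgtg
Car12: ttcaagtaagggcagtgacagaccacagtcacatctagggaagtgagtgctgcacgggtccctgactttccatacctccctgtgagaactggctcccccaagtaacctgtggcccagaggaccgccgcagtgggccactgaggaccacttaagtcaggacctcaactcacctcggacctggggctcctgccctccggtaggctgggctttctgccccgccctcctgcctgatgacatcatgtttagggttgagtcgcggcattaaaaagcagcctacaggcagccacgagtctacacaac
Car9: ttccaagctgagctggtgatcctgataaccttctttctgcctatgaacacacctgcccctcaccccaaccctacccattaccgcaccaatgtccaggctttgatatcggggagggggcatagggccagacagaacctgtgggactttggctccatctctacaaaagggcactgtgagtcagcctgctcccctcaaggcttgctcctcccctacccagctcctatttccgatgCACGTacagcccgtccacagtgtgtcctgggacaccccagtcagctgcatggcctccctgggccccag
Car14: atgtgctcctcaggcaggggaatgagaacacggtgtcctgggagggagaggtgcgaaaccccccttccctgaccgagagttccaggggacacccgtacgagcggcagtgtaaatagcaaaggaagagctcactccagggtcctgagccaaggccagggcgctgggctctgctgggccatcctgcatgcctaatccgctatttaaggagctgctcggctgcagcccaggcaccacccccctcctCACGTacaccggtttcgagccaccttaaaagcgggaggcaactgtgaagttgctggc
The Car6 window held CACGTG at position −149 relative to the start, which by its letters also contains ACGTG on both strands, and GCGTG at position 43. The Car6 gene of GENCODE starts further upstream, at 150201332, so both positions lie inside it. Car9 and Car14 each held ACGTG on the minus strand, at positions −18 and −7. No listed letters were in the Car12 window, and 5 matches to GCGTG were in that of Car5b. Of 32851 mouse promoter windows of the same length, 19.6% held ACGTG, 32.4% GCGTG, 7.15% CACGTG, 14.2% CATGTG and 0.07% the estrogen response element, and none of the 5 member windows held the last of these. These matches describe the letters only.

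The members fell into 3 levels of expression. Per kilobase of merged exon, so that genes can be compared, Car6 averaged 181 CPM per kb over the 12 tumors, Car14 135 and Car9 129. Car13 followed at 11.2 CPM per kb, then Car8 at 0.662, Car2 at 0.389, Car5b at 0.183 and Car12 at 0.0970. The ranges over tumors did not overlap between Car9 and Car13 or between Car13 and Car8, whereas every other pair of neighbors in this order overlapped. Car6 was above Car14 in 9 of 12 tumors, and Car14 was above Car9 in 8 of 12. Together Car6, Car9 and Car14 held between 95.2% and 97.7% of all counts of the 8 genes in each tumor, so a secreted form and a pair of membrane forms made up most of the carbonic anhydrase message in these tumors.

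**Figure D1:**
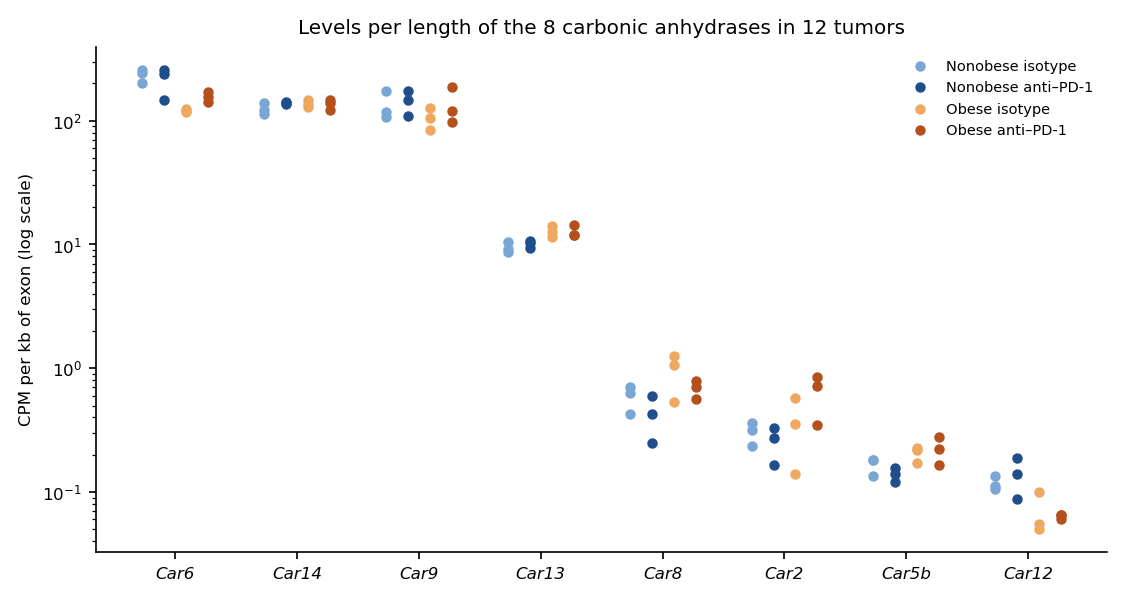
Levels of the 8 genes in 12 tumors as CPM per kb of exon (log scale), each point 1 tumor, colored by group, with genes in order of their mean. Car6, Car14 and Car9 lie near or above 100 in nearly all tumors (lowest 84.7 for Car9), Car13 lies between 8.70 and 14.3, and the other 4 genes reach at most 1.25.

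Car6 (chr4:150187015-150201332, minus strand, 9 merged exons) had the highest mean per kilobase over the 12 tumors, although in isotype-treated obese tumors Car14 was higher (137 against 120.3 CPM per kb). Isotype-treated nonobese tumors had 446, 467 and 367 CPM of Car6. Isotype-treated obese tumors had 216, 224 and 215 CPM. All 3 obese tumors lay below all 3 nonobese ones, with means of 426 ± 52.9 and 218 ± 5.12 CPM (SD, n = 3), a ratio of 1.95. The fitted log2 fold change was −0.97 (SE 0.18), which chose the gene and is not a test of it. By count, Car6 ranked between 303 and 410 among all genes in the isotype-treated nonobese tumors and between 779 and 898 in the obese ones.

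Under anti–PD-1, nonobese tumors had 465, 434 and 266 CPM of Car6, and obese tumors had 310.1, 257 and 285 CPM. The groups overlapped, because the third nonobese tumor lay below 2 of the obese ones. The means were 388 ± 107 and 284 ± 26.5 CPM (SD, n = 3). The log2 fold change for obese against nonobese was −0.45 (SE 0.17, 95% interval −0.83 to −0.08), with P = 0.0216 and FDR = 0.369 by edgeR, and an exact permutation test of the CPM gave P = 0.3. Car6 did not pass the study's thresholds, which are more than a 2-fold difference and an unadjusted P under 0.05, nor an FDR of 0.05. Leaving out 1 library moved this result. Without nonobese anti–PD-1 replicate 3 the log2 fold change was −0.64 with FDR = 0.0278 by edgeR, and without nonobese anti–PD-1 replicate 1 it was −0.30 with FDR = 0.459. Over all 20 alternative settings the sign stayed negative and the FDR ran from 0.0278 to 0.726 by edgeR and DESeq2.

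Car14 offers a yardstick within each library, since a count ratio to it does not depend on library scaling. In isotype-treated nonobese tumors there were 1.26, 1.503 and 1.28 counts of Car6 per count of Car14, and in isotype-treated obese tumors 0.626, 0.602 and 0.652. Under anti–PD-1 the ratios were 1.31, 1.25 and 0.732 in nonobese tumors and 0.826, 0.720 and 0.921 in obese tumors. In the tumors that had no part in the choice, Car6 counts exceeded Car14 counts in 2 of 3 nonobese and in 0 of 3 obese tumors, and the ratios overlapped because of nonobese replicate 3. The share of Car6 in the counts of all 8 genes was 36.3% to 43.4% in isotype-treated nonobese tumors and 24.5% to 26.9% in isotype-treated obese tumors, the values that chose the gene. Under anti–PD-1 the shares were 29.3% to 39.3% in nonobese and 26.9% to 31.4% in obese tumors, and these overlapped. Within obese mice the Car6 values of anti–PD-1–treated tumors all lay above those of isotype-treated tumors, with a log2 difference of 0.38 (SE 0.17), given without a test because it uses the obese isotype tumors that chose the gene.

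**Figure D2:**
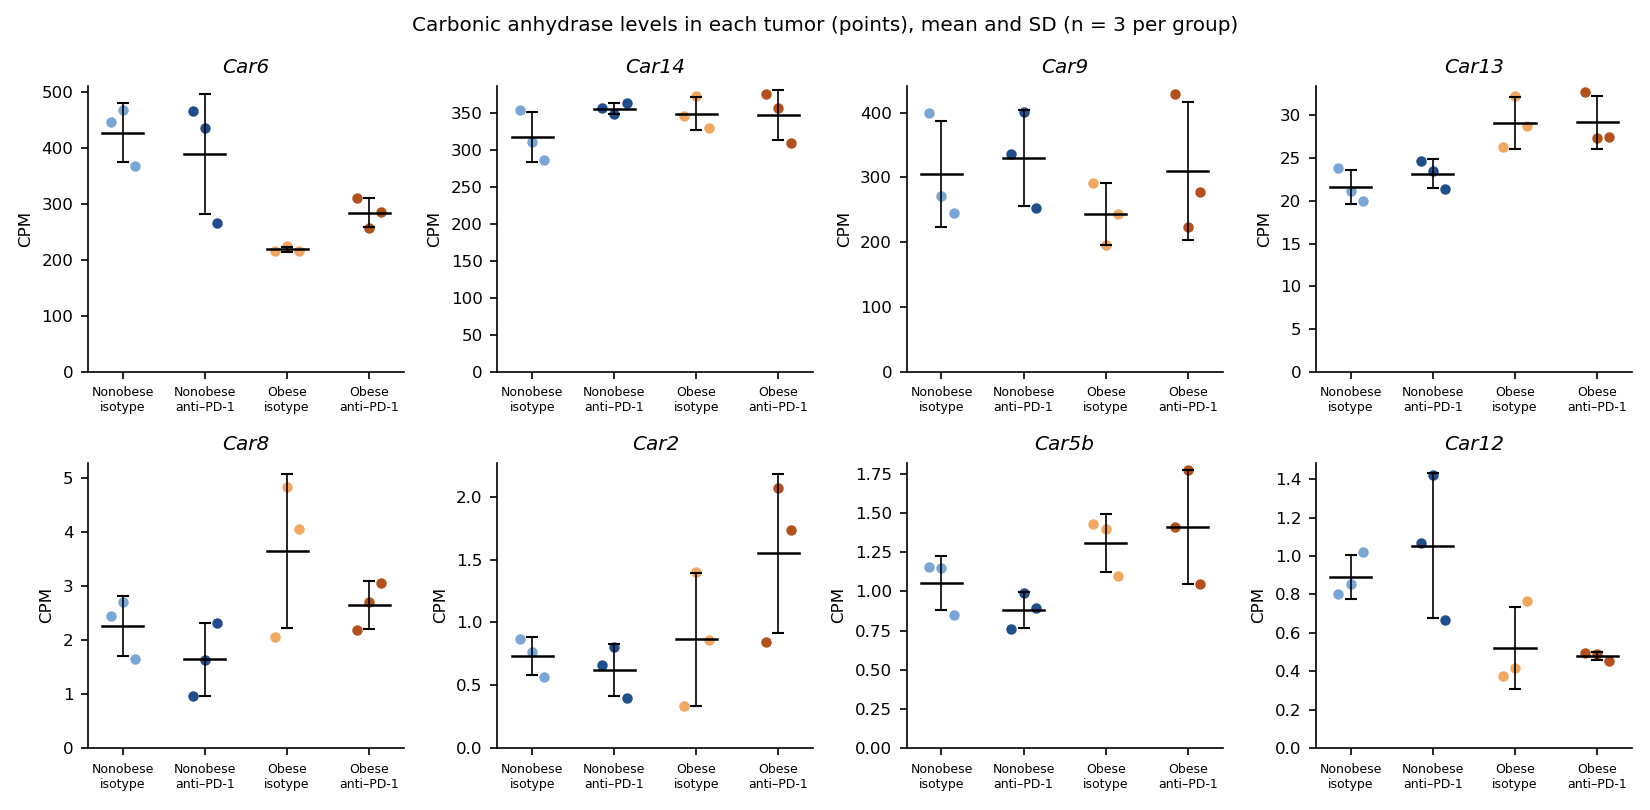
CPM of each of the 8 genes in the 4 groups, each point 1 tumor, with the mean and SD (n = 3) and an axis starting at 0 for each gene. Car6 is at 215 to 224 CPM in the obese isotype tumors and at 367 or more in the nonobese isotype tumors, Car14 is between 287 and 375 CPM in every tumor, and Car13 is higher in every obese tumor than in any nonobese one.

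Car12 (chr9:66713686-66766845, plus strand, 11 merged exons) was the least abundant member, with 6 to 46 counts per tumor. Isotype-treated nonobese tumors had 0.803, 0.852 and 1.02 CPM from 25, 29 and 18 counts. Isotype-treated obese tumors had 0.379, 0.420 and 0.764 CPM from 9, 6 and 16 counts. These groups did not overlap, and the log2 fold change of −0.75 (SE 0.43) belongs to the contrast that chose the gene. It was −1.16 without obese isotype replicate 3.

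Under anti–PD-1, Car12 was at 1.07, 1.42 and 0.669 CPM in nonobese tumors and at 0.494, 0.492 and 0.456 CPM in obese tumors. All obese values again lay below all nonobese values, now in tumors that had no part in the choice of the gene. The log2 fold change was −1.14 (SE 0.43, 95% interval −2.07 to −0.20) with FDR = 0.366 by edgeR, so that Car12 passed the study's thresholds but not an FDR of 0.05. The obese values rest on 7, 10 and 10 counts, which limits them. The call was lost without nonobese anti–PD-1 replicate 2 (log2 fold change −0.84, FDR = 0.691 by edgeR) and without obese anti–PD-1 replicate 3 (−1.10, FDR = 0.711). Over 19 alternative settings Car12 stayed lower and its FDR ran from 0.249 to 0.711.

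Across the 8 members, 2 passed the study's thresholds in the diet comparison under anti–PD-1, Car12 lower and Car2 higher, against 4.25% of all tested genes (3.69% higher and 0.565% lower). The groups did not overlap for 4 of 8 members, against 13.6% of tested genes. Car12 lay lower (7.06% of tested genes) and Car2, Car5b and Car13 lay higher (6.54%) in obese tumors. An unadjusted P below 0.05 was reached by 4 members, Car2, Car6, Car12 and Car13, against 10.3% of tested genes. By edgeR 0 of the 8 had an FDR below 0.05, against 0.382% of tested genes. DESeq2 likewise gave 0, against 272 of 17511 genes. The median log2 fold change of the 8 was 0.15, beside −0.01 over all tested genes, with 4 members positive (46.9% of tested genes) and 4 negative (53.1%), so the family did not move in a single direction. In the isotype contrast that chose the genes, given as a description, 0 of 8 had a fitted difference above 2-fold (1.37% of tested genes had one that also met the P threshold) and 3 of 8 had groups without overlap (19.4% of tested genes), Car6 and Car12 lower (9.02%) and Car13 higher (10.4%).

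**Figure D3:**
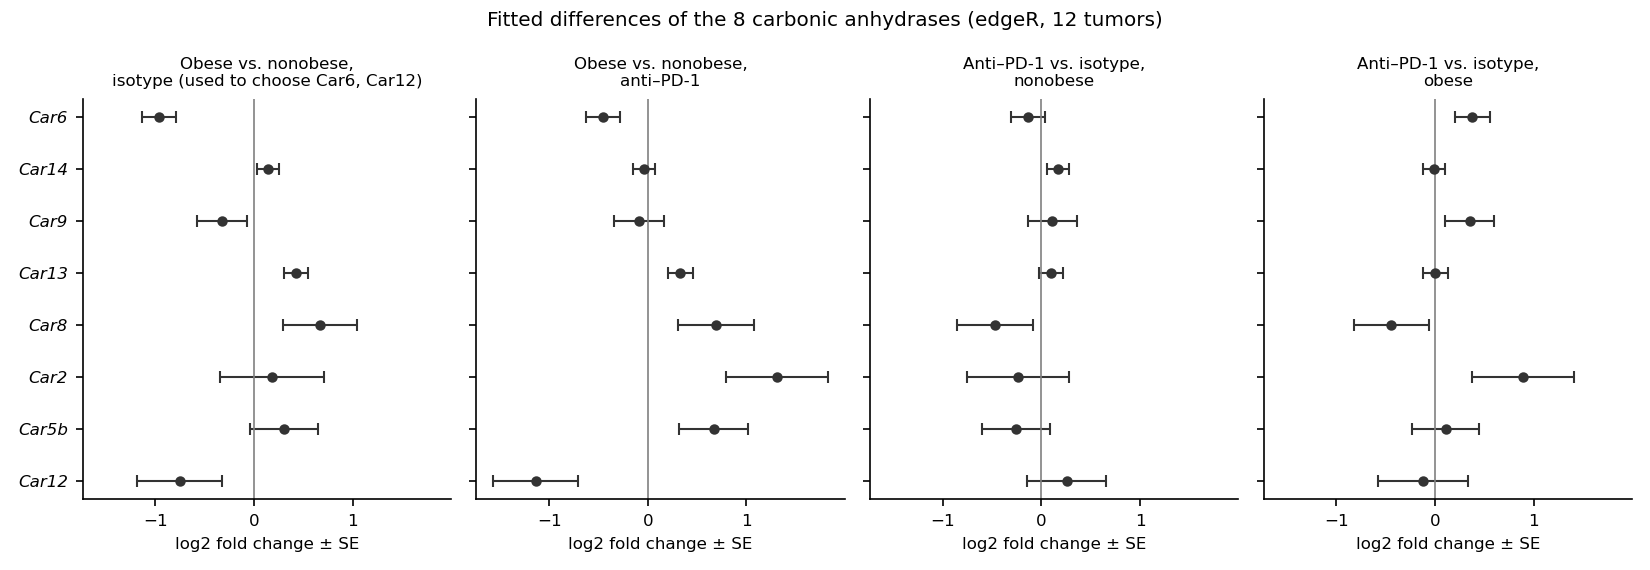
Log2 fold changes of the 8 genes ± SE in the 2 diet comparisons (obese against nonobese under isotype and under anti–PD-1) and the 2 responses to anti–PD-1. The bars are SE and are narrower than 95% intervals. In the diet comparison under anti–PD-1 the 95% intervals of Car2, Car6, Car12 and Car13, which are not drawn, exclude 0. The isotype diet contrast holds the values that chose the genes. There, and for Car6 and Car12 in both responses, the bars describe spread only and are not tests.

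Car9 (chr4:43506966-43513729, plus strand, 11 merged exons) averaged 129 CPM per kb against 135 for Car14, and was far more variable within groups. In obese isotype tumors Car9 lay below Car14, at 84.7 to 126 against 130 to 146 CPM per kb. Isotype-treated tumors had 399, 271 and 246 CPM of Car9 in nonobese mice and 291, 195 and 244 CPM in obese mice. Under anti–PD-1 the values were 336, 401 and 253 CPM in nonobese mice and 429, 224 and 278 CPM in obese mice. All 4 groups overlapped. The diet difference under anti–PD-1 was −0.09 on the log2 scale (SE 0.25, FDR = 0.947 by edgeR), with a 95% interval from −0.63 to 0.45, so differences within these bounds are not excluded. The RefSeq start used for the Car9 window above lies inside the gene of the GENCODE annotation. Of the exonic bases of Car9, 214 overlap the antisense gene Gm12454.

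The spread of Car9 between tumors went with that of other hypoxia-inducible genes. Over 12 tumors the log2 CPM of Car9 had a Pearson correlation of 0.90 with the mean of 14 such genes, and 0.92 after group means were removed. Single genes ranged from 0.46 for Adm, a vasodilator peptide, to 0.92 for Slc2a1, the glucose importer GLUT1. Hk2, the hexokinase that traps glucose, was at 0.87, and Egln1, an oxygen-sensing prolyl hydroxylase, was at 0.83. These correlations describe 12 libraries that share normalization, and depth and cell content were not separated from them. The obese anti–PD-1 tumor with the highest Car9 level (log2 CPM 8.75) also had the highest list mean (7.41), and the obese isotype tumor with the lowest Car9 level (7.61) had the second lowest list mean (6.55). Of the 14 hypoxia-inducible genes, all tested, 0 passed the study's thresholds by edgeR in any of the 5 comparisons. At an unadjusted P below 0.05 alone there was 1 lower in obese isotype tumors and 1 higher after anti–PD-1 in obese mice. By sign, 13 of 14 were positive in the obese response, with a median log2 fold change of 0.32 beside −0.01 over all tested genes. In the isotype contrast 10 of 14 were negative (median −0.16 beside 0.01). In the diet comparison under anti–PD-1 and in the nonobese response 10 were positive (medians 0.07 and 0.09).

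**Figure D4:**
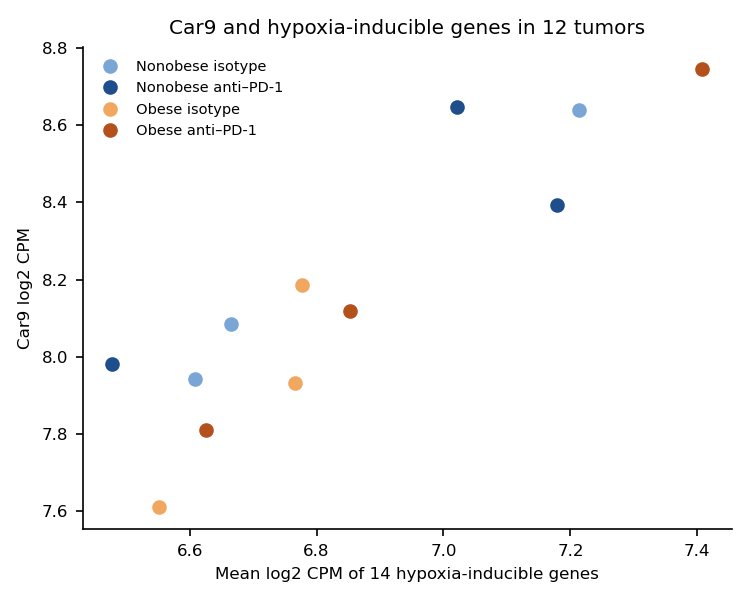
Log2 CPM of Car9 (vertical) against the mean log2 CPM of 14 hypoxia-inducible genes (horizontal) in 12 tumors, colored by group. Tumors of every group are spread along 1 rising band, from list means of 6.48 to 7.41, and the groups are not separated from each other.

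Car14 (chr3:95897768-95904691, minus strand, 13 merged exons), the other abundant membrane form, was the steadiest member. Its levels were 354, 311 and 287 CPM in isotype-treated nonobese tumors and 346, 372 and 329 CPM in isotype-treated obese ones. Anti–PD-1–treated tumors had 356, 348 and 363 CPM in nonobese mice and 375, 357 and 309 CPM in obese mice. All groups overlapped. The diet difference under anti–PD-1 was −0.04 on the log2 scale (SE 0.11, 95% interval −0.27 to 0.20, FDR = 0.951 by edgeR). Car14 shares 445 exonic bases with Aph1a on the opposite strand, and since the sources used here do not give the strand option of the counting, reads of the 2 genes may not be fully separated.

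Car13 and Car2 are cytosolic enzymes encoded in 1 cluster of 4 carbonic anhydrase genes, from Car13 through Car1 and Car3 to Car2, over 259044 bases of chromosome 3 (chr3:14641727-14900770). Isotype-treated tumors had 23.9, 21.2 and 19.99 CPM of Car13 in nonobese mice and 26.3, 32.3 and 28.7 CPM in obese mice. Under anti–PD-1, Car13 was at 24.7, 23.5 and 21.4 CPM in nonobese tumors and at 32.8, 27.3 and 27.5 CPM in obese tumors. Every obese tumor lay above every nonobese tumor in both comparisons. Under anti–PD-1 the log2 fold change was 0.33 (SE 0.13, 95% interval 0.06 to 0.60, FDR = 0.363 by edgeR), so the difference was small, below the study's fold threshold, and did not pass correction over all genes. In the isotype contrast it was 0.42 (SE 0.13), given as a value. The count ratio of Car13 to Car14 was 0.0589 to 0.0697 in nonobese tumors and 0.0762 to 0.0888 in obese tumors, again without overlap.

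**Figure D5:**
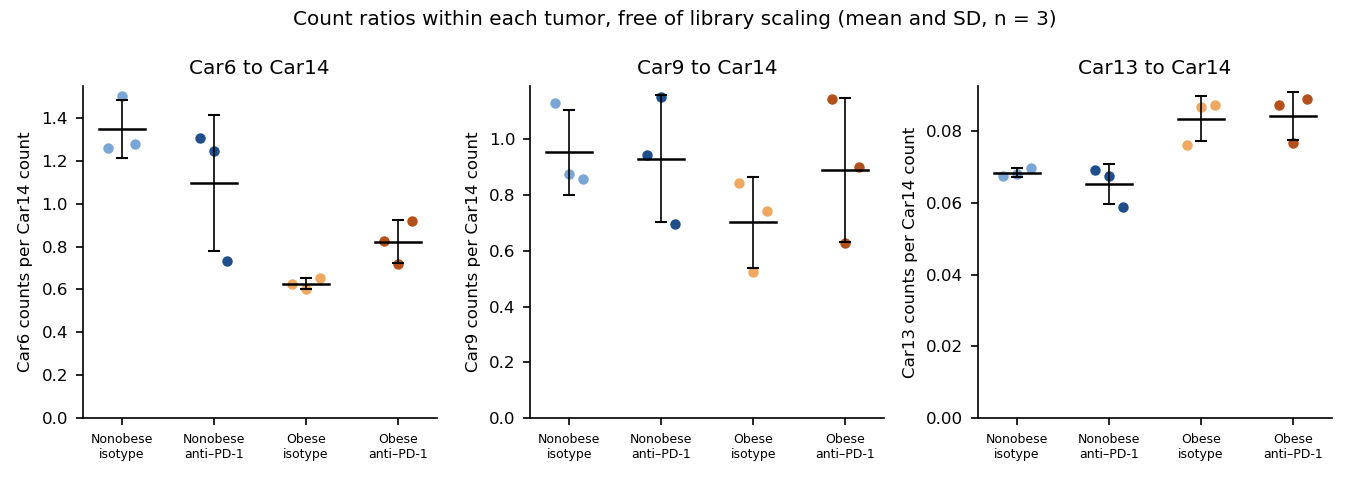
Counts of Car6, Car9 and Car13 per count of Car14 in each tumor of the 4 groups, with mean and SD (n = 3) and axes starting at 0. The Car6 ratio is 1.35 ± 0.135 in nonobese isotype and 0.626 ± 0.0248 in obese isotype tumors, the Car9 ratio is 0.857 to 1.13 in nonobese isotype and 0.524 to 0.842 in obese isotype tumors and overlaps between the diets under anti–PD-1, and the Car13 ratio is higher in each obese tumor than in any nonobese one.

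Car2, the fast cytosolic enzyme of red cells, kidney and osteoclasts, was counted 8 to 42 times per tumor. Isotype-treated tumors had 0.867, 0.764 and 0.568 CPM in nonobese mice and 0.337, 1.40 and 0.859 CPM in obese mice, with overlap. Under anti–PD-1 it was at 0.661, 0.804 and 0.401 CPM in nonobese tumors and at 0.846, 2.07 and 1.73 CPM in obese tumors, without overlap, although the lowest obese value was close to the highest nonobese one. The log2 fold change was 1.31 (SE 0.52, 95% interval 0.20 to 2.42) with FDR = 0.382 by edgeR, past the study's thresholds but not an FDR of 0.05. The call was lost without nonobese anti–PD-1 replicate 3 (log2 fold change 1.10, FDR = 0.589 by edgeR), without obese anti–PD-1 replicate 2 (1.05, FDR = 0.749) or without obese anti–PD-1 replicate 3 (1.23, FDR = 0.718). Over 19 alternative settings Car2 stayed higher and its FDR ran from 0.223 to 0.749.

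Car5b (chrX:163976822-164027997), the mitochondrial member, had 15 to 39 counts per tumor. Its level under isotype was 1.16, 1.15 and 0.852 CPM in nonobese tumors and 1.43, 1.40 and 1.10 CPM in obese tumors. Under anti–PD-1 it was 0.762, 0.990 and 0.892 CPM in nonobese and 1.41, 1.77 and 1.05 CPM in obese tumors, which did not overlap. The log2 fold change under anti–PD-1 was 0.67 (SE 0.35, 95% interval −0.08 to 1.41, FDR = 0.548 by edgeR), so this difference did not pass the test.

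Car8 (chr4:8143362-8239041), the form without classical enzyme activity, is known for binding the inositol trisphosphate receptor in Purkinje neurons. It had 19 to 92 counts per tumor. Isotype-treated tumors had 2.44, 2.704 and 1.65 CPM in nonobese mice and 2.06, 4.83 and 4.06 CPM in obese mice. Under anti–PD-1 the values were 0.966, 1.64 and 2.32 CPM in nonobese and 2.19, 2.71 and 3.06 CPM in obese tumors. Both diet comparisons overlapped, and the log2 fold change under anti–PD-1 was 0.69 (SE 0.39, 95% interval −0.14 to 1.52, FDR = 0.589 by edgeR). It was 0.43 without nonobese anti–PD-1 replicate 1 (FDR = 0.662) and 1.03, past the study's thresholds, without nonobese anti–PD-1 replicate 3 (FDR = 0.390).

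The effect of anti–PD-1 was examined within each diet. In nonobese mice 0 of 8 passed the study's thresholds by edgeR (2.42% of tested genes) and 0 of 8 had groups without overlap (11.2%). In obese mice 0 of 8 passed (2.44%), and the groups of 1 member, Car6, did not overlap, with higher values after anti–PD-1 (12.4%, or 5.45% higher). Of the 6 members that could be tested in these comparisons, 0 had an unadjusted P below 0.05 in nonobese mice (5.23% of tested genes). The same held in obese mice (7.57%). DESeq2 also gave 0 past the thresholds in both, against 2.07% and 2.28% of genes. The largest difference in obese mice was that of Car2, at 0.89 on the log2 scale (SE 0.52, 95% interval −0.22 to 2.00, FDR = 0.708 by edgeR). Without obese isotype replicate 1 it was 0.504 (FDR = 0.809). It passed the thresholds with the current form of glmQLFit (1.04, FDR = 0.625), without obese isotype replicate 2 (1.40, FDR = 0.852) and without obese anti–PD-1 replicate 1 (1.196, FDR = 0.552). The difference between the 2 responses, fitted over all 12 tumors, passed the thresholds for 0 of 8 members, against 5.76% of tested genes. By DESeq2 this difference passed for 0 members, against 4.87% of genes. It had an unadjusted P below 0.05 for 0 of the same 6 (12.9% of tested genes). It was 1.13 for Car2 (SE 0.73, FDR = 0.538 by edgeR), 0.74 to 1.64 when each tumor was left out, and, as values without a test, 0.51 for Car6 (SE 0.25) and −0.38 for Car12 (SE 0.61), which turned to 0.03 without obese isotype replicate 3.

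The orders of the group means differed between members. For Car6 the order was nonobese isotype, nonobese anti–PD-1, obese anti–PD-1 and obese isotype, and among neighbors only obese anti–PD-1 and obese isotype did not overlap. For Car12 nonobese isotype and obese isotype were the neighbors without overlap, and for Car13 they were obese isotype and nonobese anti–PD-1. For Car2, Car5b, Car8, Car9 and Car14 every pair of neighbors overlapped. Over 12 tumors the log2 CPM of Car6 and Car12 had a correlation of 0.75, which was 0.44 after group means were removed. Both genes were chosen for lower levels in obese isotype tumors, so the first value includes the difference that chose them. Car6 and Car13 went from −0.57 to 0.61 by the same step. The latter pair thus differed in opposite directions between groups while varying together within them.

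The 8 other carbonic anhydrases ranged from no counts to levels above those of several members. Car1, the red cell form, and Car10 had 0 counts in all 12 tumors, and a floor of 3 counts in the summed 272866566 counts allows 0.0110 CPM, for counting error only. Car4 and Car5a had at most 14 and 8 counts in a tumor and were not tested. Car7, Car11 and Car15 were tested at low levels, with maxima of 22, 84 and 77 counts. The mean of Car11 over the 12 tumors was 2.02 CPM, from 17 to 84 counts. Car7 passed the study's thresholds for higher levels after anti–PD-1 in nonobese mice (log2 fold change 1.96, FDR = 0.912 by edgeR), from 2, 10 and 0 counts to 5, 13 and 22.

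Car3, which is abundant in muscle and fat, ran from 2 to 1258 counts. In obese mice it was at 0.337, 1.33 and 6.97 CPM under isotype and at 15.2, 18.3 and 57.4 CPM under anti–PD-1, and these groups did not overlap. Its log2 fold change was 3.38 (SE 1.17, FDR = 0.473 by edgeR), and that of the difference between responses was 4.27 (SE 1.56, FDR = 0.277), both past the study's thresholds. Summed adipocyte markers were 28.6, 36.0 and 36.9 CPM in the same isotype tumors and 95.1, 66.7 and 139 CPM in the anti–PD-1 tumors. Summed skeletal muscle markers were 15.5, 24.6 and 152 CPM and 47.4, 293 and 664 CPM. The part of these tissues in the Car3 values was not tested.

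Of 18 bicarbonate, proton and lactate transport genes, the partners of the membrane carbonic anhydrases, 16 were tested. By edgeR 0 of the 16 passed the study's thresholds in the diet comparison under anti–PD-1 or in the response of nonobese mice, where 0 also had an unadjusted P below 0.05, and 0 passed in the isotype contrast, where 1 had such a P. In the response of obese mice 1 passed. That gene was Slc4a1, the anion exchanger of red cells, higher after anti–PD-1 with a log2 fold change of 2.40 (SE 0.77, FDR = 0.416 by edgeR). Summed levels of the list were 1589 to 2076 CPM in obese isotype and 1905 to 2204 CPM in obese anti–PD-1 tumors.

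Markers of other tissue moved with the diet comparison under anti–PD-1. Of 10 adipocyte markers 9 passed the study's thresholds for higher levels in obese tumors, as did 6 of 7 tested T cell, 6 of 9 macrophage, 4 of 10 fibroblast and 1 of 10 endothelial markers. Summed adipocyte markers were 27.2 to 43.3 CPM in nonobese and 66.7 to 139 CPM in obese tumors, and T cell markers 5.34 to 6.77 and 8.32 to 21.1 CPM. Of the melanocyte and of the skeletal muscle markers 0 of 10 passed, and 0 had an unadjusted P below 0.05 by edgeR. Melanocyte markers had sums of 27723 to 31104 and 28777 to 33157 CPM. In the isotype contrast 0 of 10 melanocyte markers passed the thresholds, but 3 had an unadjusted P below 0.05 for higher and 1 for lower levels in obese tumors, and 8 of 10 were positive. There 6 of 10 adipocyte, 2 of 9 macrophage, 1 of 7 T cell and 1 of 10 fibroblast markers passed the thresholds for lower levels in obese tumors. By sign alone, all 10 adipocyte, all 9 macrophage, all 10 endothelial and all 10 skeletal muscle markers were negative there, as were 9 of 10 fibroblast and 5 of 7 T cell markers. Fibroblast sums overlapped in both contrasts (302 to 585 against 445 to 1914 CPM under anti–PD-1, and 646 to 2861 against 222 to 1134 CPM under isotype). The keratinocyte markers Krt1 and Krt10 and the erythroid markers Hba-a1 and Hba-a2 were at 0 counts in all tumors. Other members of these lists were present, with summed keratinocyte markers of 4.13 to 18.3 CPM and summed erythroid markers of 3.39 to 19.5 CPM. Of the keratinocyte markers 2 were tested, and Krt5, a basal keratinocyte keratin, passed the thresholds for lower levels in obese isotype tumors (log2 fold change −3.92, FDR = 0.271 by edgeR) and also after anti–PD-1 in nonobese mice (−4.56, FDR = 0.833 by edgeR). After anti–PD-1, 9 of 10 adipocyte, 5 of 7 T cell, 3 of 10 skeletal muscle and 1 of 9 macrophage markers passed the thresholds for higher levels in obese mice. So did 1 of 3 tested erythroid markers, Slc4a1, which is also the transport gene named above. In nonobese mice 7 of 10 fibroblast, 4 of 10 adipocyte, 4 of 9 macrophage, 1 of 10 endothelial, 1 of 7 T cell and 1 of 2 keratinocyte markers passed for lower levels. The part of these cells in the Car2, Car5b, Car6, Car12 and Car13 values was not tested.

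Genes whose pattern over the 12 tumors was most like that of Car6 were found by Pearson correlation of log2 CPM among 11954 genes with a mean of at least 1 CPM. They were E130012A19Rik (0.94), Etv5, an ETS-family transcription factor (0.92), Cdk11b, a cyclin-dependent kinase (0.92), Mta1, a subunit of the NuRD chromatin complex (0.91), and Csdc2, a cold shock domain protein (0.90). For Car12 they were Bri3bp (0.94), Prokr1, a prokineticin receptor (0.93), Tsr1 and Wdr3, factors of ribosome assembly (0.91 and 0.87), and Cdc25a, a cell cycle phosphatase (0.86). By deviations from the group means 0 of the 5 genes recurred among the top 5 for Car6 and 0 of 5 for Car12. The named genes still had correlations by that measure, from 0.62 (Csdc2) to 0.86 (E130012A19Rik) with Car6. With Car12 they ran from 0.54 (Cdc25a) to 0.94 (Prokr1). These points share libraries and the difference between groups, and for Car12 the values rest on few counts.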

How the data were processed

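RNA of 12 B16-F10 tumors was sequenced by the authors from stranded poly(A) libraries as single-end reads of 100 bp. Per the labels, reads were aligned to mm10 with STAR 2.7.0f and counted per gene with HTSeq 0.9.1, and the deposited values are raw counts. The annotation and strand setting of the counting are not given in the sources used here. Every one of the 12 count columns was matched by name to a tumor label, and 0 were left unused.

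The 8 members, the gene lists and the tests were chosen with earlier results of these data known. Counts were filtered with filterByExpr in edgeR 4.0.16 (R 4.3.3), which kept 13095 genes, scaled by TMM and fitted with 4 group means over all 12 tumors. The quasi-likelihood F-test used glmQLFit with legacy=TRUE, as in the version the authors used. Calls required more than a 2-fold difference with unadjusted P under 0.05, and FDR is the Benjamini-Hochberg value over all 13095 genes. The F statistic gave the standard errors and 95% intervals. Members received no P in the contrast that chose them, nor did Car6 and Car12 in any contrast with isotype tumors. Lengths are merged exons of GENCODE vM21. Log2 CPM for correlations had a prior count of 2. All members were named, other carbonic anhydrases as counts, transport genes where they passed the thresholds, and the 5 genes most like Car6 and Car12 by correlation. The hypoxia-inducible genes set beside Car9 and the marker Krt5 were named after their values were seen, and cell type markers are otherwise given as counts. Alternatives were DESeq2 1.42.0, RLE scaling, 2 other filters, the current glmQLFit, a robust prior, only the tumors compared, a replicate block and leaving out each tumor. The code was tested on simulated counts. No tumors of the same group were found to be duplicates, a check that was not made between groups. Reads had no molecular identifiers, so the floor of 3 counts covers counting error only.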

Additional observations from a re-analysis of the deposited data

How the results depend on the processing

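Depth limits Car2, Car5b, Car8 and Car12, of which Car2 and Car12 had under 10 counts in some tumors, and 3 tumors a group limit all members. In the diet comparison under anti–PD-1, 2 members passed the thresholds, against 4.25% of all genes. The count was 2 under DESeq2, RLE scaling, the loose filter, the current glmQLFit, the robust prior and the 6 tumors alone, where 3.59% to 4.66% of all genes passed. It was 0 of 6 with at least 10 counts in every tumor, a filter that removes Car2 and Car12 and under which 2.69% of genes passed. Leaving out each tumor gave 0 to 2 there, with 1 without nonobese anti–PD-1 replicate 2, 1 without obese anti–PD-1 replicate 2 and 0 without obese anti–PD-1 replicate 3. The share of all genes was 4.42%, 2.88% and 3.08% in these, and 5.66% without obese anti–PD-1 replicate 1. Without nonobese anti–PD-1 replicate 3 the count was 2, with Car8 (1.03) in place of Car2. In the isotype contrast the count is a description of values that chose the genes and no test. It was 0 to 1 there, and 0.652% to 3.07% of all genes passed when each tumor was left out. Car6 was past 2-fold (−1.08) without nonobese isotype replicate 3 (0.907%), and Car12 (−1.16) without obese isotype replicate 3 (1.64%). The obese response gave 1 with the current glmQLFit, Car2, where 2.7% of all genes passed. It gave 0 to 1 when each tumor was left out, where 1.67% to 4.31% of all genes passed. The count was 1 without obese anti–PD-1 replicate 1 (4.31%) or without obese isotype replicate 2 (1.76%). The difference between responses gave 0 to 1, with 1 without obese isotype replicate 2 (4.59% of all genes). That share ran from 4.59% to 7.01% when each tumor was left out. The cause of these changes was not tested.

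Replicate numbers were not treated as pairs in the main fit. Deviations of same-numbered tumors had a mean correlation of 0.133 over 18 pairs (−0.264 to 0.563), with 10 of them over 0.1. Those of the 36 other pairs had a mean of −0.0623, with 13 over 0.1. With a replicate block the count of members past the thresholds was 2 in the diet comparison under anti–PD-1 (4.38% of all genes). It was 0 in the other 4 comparisons, as without the block. There 1.57% of all genes passed in the isotype contrast, 2.75% in the nonobese and 2.66% in the obese response, and 5.87% in the difference. The block turned the sign of Car13 in the obese response from 0.0035 to −0.00075.

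No member past the thresholds changed sign under these alternatives. Car14 in the obese response (main value −0.0083) was 0.0059 with RLE scaling, 0.018 with at least 10 counts in every tumor, 0.0051 by DESeq2 and 0.0041 with the 6 tumors alone. Leaving out each tumor gave ranges of −0.046 to 0.078 for Car14, −0.064 to 0.090 for Car13 and −0.090 to 0.297 for Car5b in the obese response. In the diet comparison under anti–PD-1 they were −0.39 to 0.093 for Car9 and −0.089 to 0.036 for Car14. Car9 in the nonobese response ranged from −0.053 to 0.35. In the difference between responses, Car8 ranged from −0.25 to 0.37 and Car9 from −0.046 to 0.43. As values without a test, Car12 ranged from −0.59 to 0.032 there, from −0.31 to 0.28 in the obese response and from −0.036 to 0.48 in the nonobese response, Car6 from −0.29 to 0.056 in the nonobese response and Car2 from −0.33 to 0.57 in the isotype contrast. Car12 was positive in the obese response and in the difference without obese isotype replicate 3, and Car6 was positive in the nonobese response without nonobese anti–PD-1 replicate 3.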

Other observations

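Some pairs of members also varied together over the 12 tumors, as a description of libraries that share depth and cell content. After group means were removed, Car5b and Car14 had a correlation of 0.68 in log2 CPM, Car13 and Car14 0.67, Car6 and Car9 0.59, and Car2 and Car8 0.52. Without that step the values were 0.38, 0.54, 0.58 and 0.48. These pairs were picked for high positive values after all were seen. Other pairs went the other way within groups, with −0.40 for Car8 and Car9 and −0.37 for Car12 and Car14. Car5b and Car12, both at few counts, had a correlation of −0.71 over all tumors and −0.25 within groups.

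Car15 had 77 counts (3.43 CPM) in nonobese anti–PD-1 replicate 3, the tumor that also had the lowest Car6 level of its group, and between 5 and 42 counts in the 11 other tumors. In GENCODE 1253 exonic bases of Car15 overlap another gene on the same strand, Gm20518, so its counts are uncertain.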
